A study of Homo sapiens with 18 samples.

Results

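The 35 genes described here belong to the integrated stress response and to the amino acid metabolism and transport that this response controls. They were chosen by name, with earlier results of these data known, and make up 35 of the 19775 genes with a probe set on the arrays. Their counts against all genes therefore describe these data and are not an independent test. By role they are transcription factors, feedback and growth regulators, serine and folate enzymes, enzymes of asparagine, cysteine and phosphoenolpyruvate synthesis, amino acid transporters and other targets. Each was read by its brightest probe set (by mean over the arrays), and all 35 lay above the floor of 32 intensity units on at least 3 of the 18 arrays, the condition for testing, which 13308 genes in all met. RNA came from 3 established human melanoma lines, A375, SKMEL5 and WM2664, each treated with A-485, an inhibitor of the acetyltransferases p300 and CBP, or with its vehicle DMSO, and harvested after 24 h or 6 h. Each line had 1 A-485 array and 2 DMSO arrays at each time, on Affymetrix HG-U133 Plus 2.0 arrays. All cells were grown in RPMI with 10% FBS, and the A-485 dose was labelled 3 mM, a unit that was not checked. The design text counts both sensitive and resistant lines, and the labels used here do not say which line is which. They also do not say whether arrays of a group came from separate cultures, so the p-values measure only the spread between arrays.

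The integrated stress response begins when kinases that sense amino acid shortage, misfolded protein in the endoplasmic reticulum, haem shortage or viral RNA phosphorylate the translation factor eIF2, which lowers protein synthesis but raises translation of the mRNA of ATF4. ATF4 then pairs with factors such as CEBPG and switches on genes that import and make amino acids, charge and export tRNA, and damp the response again. In melanoma cells the response is known for its link to low levels of the lineage factor MITF. ATF4 is controlled mainly in translation, so the mRNA levels measured here do not report its protein.

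Levels are intensities after quantile scaling across the 18 arrays, differences are log2 values ± SE from limma, and a gene was called at a Benjamini-Hochberg adjusted p under 0.05 over the 13308 genes. Genes said to fall or rise were called lower or higher with A-485 than with DMSO of the same line and time. These words do not describe a change from an earlier level. Quantile scaling hides a change shared by most genes. The SE rests on the 6 DMSO pairs, because an A-485 group has 1 array, which was taken to vary like them. In RNA of whole cultures, fewer cells of a type and less RNA per cell cannot be told apart. Of 7 melanocyte genes analysed, the summed level was 488 to 1943 on A375 arrays, 37600 to 48740 on SKMEL5 arrays and 18280 to 34750 on WM2664 arrays, and MLANA, TYR and TYRP1 were at the floor on 5 of the 6 A375 arrays. PTPRC, CD3D and CD14, which mark leukocytes, were at the floor on every array. LYZ, also on that list, was at the floor in SKMEL5 and WM2664 and read 54.7 to 92.4 in A375. The summed level of 5 fibroblast genes was 602 to 2693 in A375, 3994 to 5347 in SKMEL5 and 2900 to 5651 in WM2664. That of 6 keratinocyte and epithelial genes was 4970 to 7782, 390 to 970 and 311 to 460 in that order. In all, 3 DMSO arrays carried a small share of another line's transcripts: A375 replicate 1 at 6 h (0.774% of SKMEL5 levels), WM2664 replicate 1 at 6 h (2.15% of SKMEL5 levels) and WM2664 replicate 2 at 24 h (1.09% of A375 levels). The shares are medians over 19, 19 and 36 genes in that order, most of them at the floor on the array. On A375 replicate 1 MLANA read 264 and PMEL 223, against 32 and 41 on replicate 2. Only DMSO arrays were listed, and the A375 A-485 array at 6 h had 0.539% of SKMEL5 levels.

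The DMSO pair of A375 at 24 h differed in the genes studied here. Replicate 2 was above replicate 1 for 32 of the 35 genes, with a median difference of 0.37, and 10 genes differed by more than 0.5 in either direction, while 5.58% of all genes did so. The other 5 pairs had medians between -0.08 and 0.01. CHAC1 differed most in the A375 pair, by 1.65. These differences enter the SE of every comparison, and leaving out either of the 2 arrays raised the number of genes called in SKMEL5 at 24 h to 30 and in WM2664 at 24 h to 24.

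**Figure D1:**
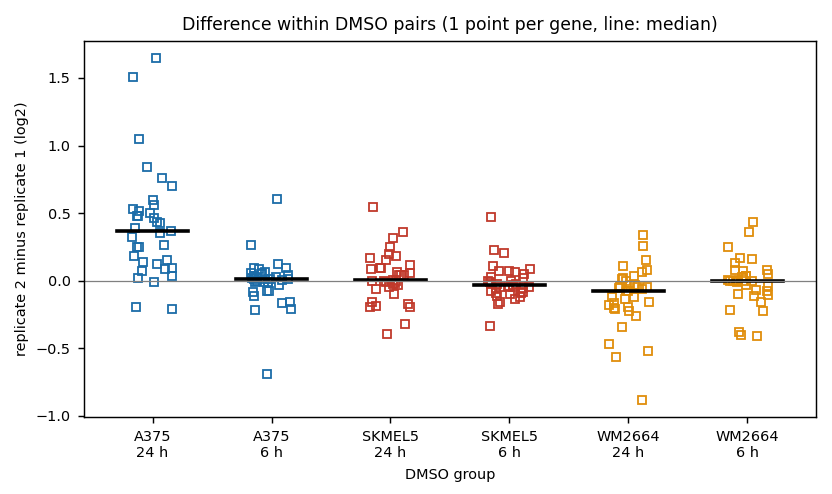
Difference between the 2 DMSO arrays of each line and time (replicate 2 minus replicate 1, log2, vertical axis), with 1 square for each of the 35 genes and a bar at the median of the group. The A375 pair at 24 h lies mostly above 0, with a median of 0.37, and the medians of the other pairs lie between -0.08 and 0.01.

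After 24 h of A-485, 27 of the 35 genes fell and 1 rose in SKMEL5, where 16% of all tested genes fell and 20.7% rose. In WM2664, 19 fell and 1 rose, against backgrounds of 15.3% and 18.2%. In A375, 3 fell and 1 rose, against 8.66% and 8.78%. The median difference over the 35 genes was 0.07 in A375, -0.99 in SKMEL5 and -0.73 in WM2664, with a median of 0.00 over all tested genes in each line. The A-485 array lay below both DMSO arrays for 33 genes in SKMEL5, 29 in WM2664 and 11 in A375. This position was not counted over all genes, and an A-485 array can lie below both DMSO arrays through spread alone. SLC7A5 and SLC3A2, the subunits of a large neutral amino acid exchanger, fell in all 3 lines. A further 17 genes fell in both SKMEL5 and WM2664, and 8 were called lower in SKMEL5 alone (DDIT3, CEBPG, TRIB3, SESN2, PPP1R15A, PHGDH, PSPH and ASNS). DDIT4 was called lower in A375 alone. The 6 genes XBP1, ALDH1L2, SLC38A1, SLC38A2, VLDLR and STC2 were called in no line at 24 h. Calls shared by lines, made in a single line or made in none were not counted over all genes, so these counts have no background.

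**Figure D2:**
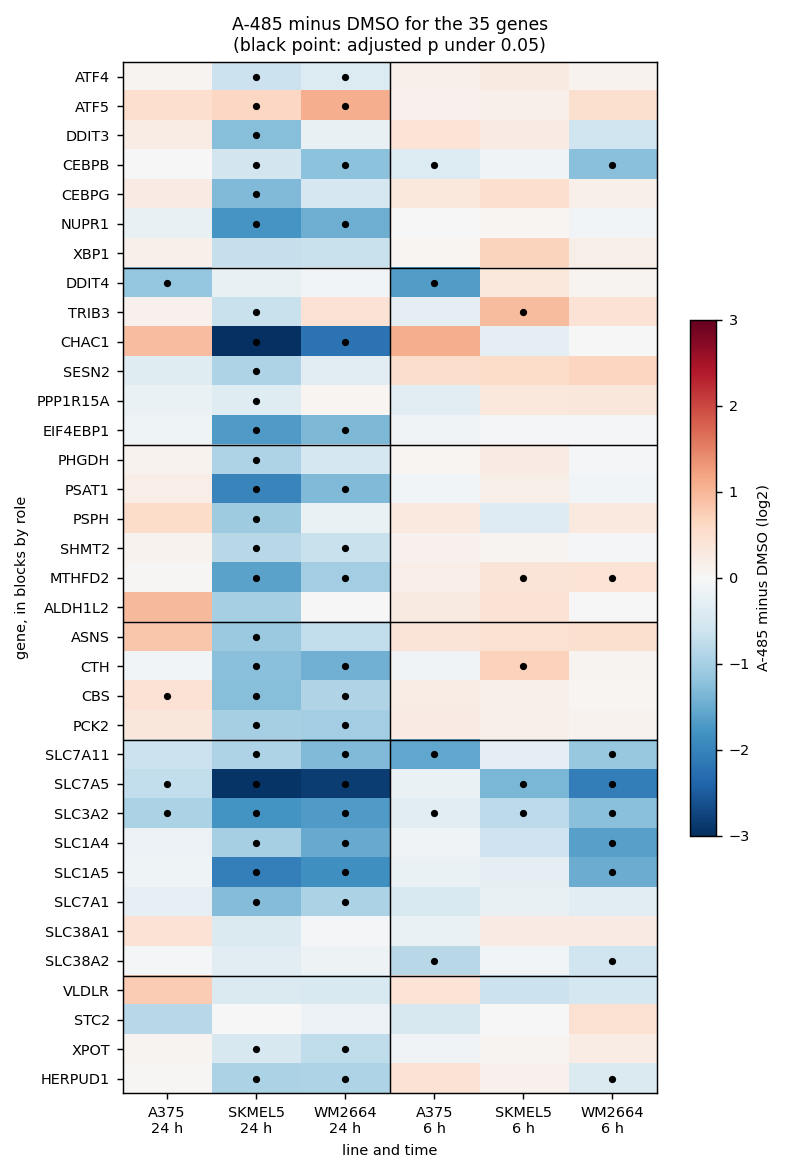
A-485 minus DMSO (log2) for the 35 genes in rows, in blocks by role, and for the 3 lines at 24 h and 6 h in columns, with a mark on each called difference. At 24 h, 27 genes were called lower in SKMEL5, 19 in WM2664 and 3 in A375.

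ATF4 binds DNA with its partners at C/EBP-ATF composite elements, and MYC-family proteins are among those that bind the E-box CACGTG. Upstream sequence is printed for the 5 genes in which one of these words lies wholly before the start. Of these, ATF4, CHAC1, HERPUD1 and SLC7A5 fell at 24 h in SKMEL5 and WM2664, and ASNS fell in SKMEL5 and was not called in WM2664. The lines run 5′ to 3′ on the gene's own strand over the 250 bases before the RefSeq start in GRCh38.p14, with matches to TGATGNAA or CACGTG, on either strand, in capitals.
ATF4 (chr22:39520309-39520558, plus strand): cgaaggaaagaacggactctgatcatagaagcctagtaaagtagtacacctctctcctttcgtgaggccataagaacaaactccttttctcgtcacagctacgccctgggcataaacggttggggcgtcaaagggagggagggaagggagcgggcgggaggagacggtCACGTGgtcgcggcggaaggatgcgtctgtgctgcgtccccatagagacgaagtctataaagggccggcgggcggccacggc
ASNS (chr7:97872409-97872658, minus strand): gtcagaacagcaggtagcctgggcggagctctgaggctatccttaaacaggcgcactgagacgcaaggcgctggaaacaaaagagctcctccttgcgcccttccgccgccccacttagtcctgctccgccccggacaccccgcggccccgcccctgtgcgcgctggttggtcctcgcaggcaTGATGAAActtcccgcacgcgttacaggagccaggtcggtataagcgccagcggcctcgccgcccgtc
CHAC1 (chr15:40953221-40953470, plus strand): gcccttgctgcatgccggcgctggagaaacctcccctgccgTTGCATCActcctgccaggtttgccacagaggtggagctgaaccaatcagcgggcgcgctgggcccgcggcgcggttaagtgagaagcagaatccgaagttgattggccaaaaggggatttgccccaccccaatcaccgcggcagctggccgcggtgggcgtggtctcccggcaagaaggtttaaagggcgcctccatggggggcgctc
HERPUD1 (chr16:56931892-56932141, plus strand): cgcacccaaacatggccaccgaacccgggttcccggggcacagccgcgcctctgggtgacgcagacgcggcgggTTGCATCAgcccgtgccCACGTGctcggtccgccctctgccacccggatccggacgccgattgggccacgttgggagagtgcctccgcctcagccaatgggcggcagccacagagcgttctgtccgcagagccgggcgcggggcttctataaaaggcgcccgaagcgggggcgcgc
SLC7A5 (chr16:87869508-87869757, minus strand): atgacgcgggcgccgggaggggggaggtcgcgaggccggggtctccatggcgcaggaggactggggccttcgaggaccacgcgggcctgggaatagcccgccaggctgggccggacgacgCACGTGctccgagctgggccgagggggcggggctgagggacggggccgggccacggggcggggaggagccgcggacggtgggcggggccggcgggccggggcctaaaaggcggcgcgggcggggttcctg

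The windows searched ran from 250 bases before to 50 after the start, and 29 of the 35 genes matched a window. TGATGNAA was found in 6 of the 29 windows (20.7%: CHAC1, ASNS, SLC3A2, SLC7A1, SLC38A1 and HERPUD1), against 3.67% of 27305 windows of the same length. CACGTG was found in 3 of the 29 (10.3%: ATF4, SLC7A5 and HERPUD1), against 7.43% of all windows. These are matches of letters, not measured binding. The 35 genes were chosen from the response that ATF4 controls, so the share with TGATGNAA is not an independent test. SLC38A1, which holds that word, was called in no line at either time.

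ATF4, the factor at the centre of the response, fell in the level of its mRNA in SKMEL5 and WM2664 at 24 h. In A375 it read 5119 with A-485 against 4566 and 5178 with DMSO at 24 h, and 4514 with A-485 against 3980 and 4125 with DMSO at 6 h. SKMEL5 arrays read 4467 with A-485 against 6543 and 7510 with DMSO at 24 h, and 6326 with A-485 against 5350 and 5184 with DMSO at 6 h. WM2664 arrays read 3743 with A-485 against 5088 and 4903 with DMSO at 24 h, and 3967 with A-485 against 3656 and 3752 with DMSO at 6 h. The A-485 array lay below both DMSO arrays in SKMEL5 and WM2664 at 24 h and between them in A375, and above both in every line at 6 h. ATF4 fell at 24 h in SKMEL5 (-0.65 ± 0.10, adjusted p = 0.0019) and in WM2664 (-0.42 ± 0.10, adjusted p = 0.0164), and no line was called at 6 h. The WM2664 call ended without DMSO replicate 1 at 24 h (-0.39), without scaling (-0.23) and without the 3 arrays that carried another line's transcripts (-0.44).

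DDIT3, a factor of prolonged stress that can promote cell death, fell in SKMEL5 at 24 h. It read 311 with A-485 against 704 and 801 with DMSO there, and 469 with A-485 against 401 and 389 with DMSO at 6 h. In WM2664 DDIT3 read 213 with A-485 against 267 and 229 with DMSO at 24 h, and 189 with A-485 against 269.6 and 302 with DMSO at 6 h. A375 arrays read 362 with A-485 against 255 and 376 with DMSO at 24 h, and 246 with A-485 against 179.9 and 192 with DMSO at 6 h. The A-485 array lay below both DMSO arrays in SKMEL5 at 24 h and in WM2664 at both times, between them in A375 at 24 h, and above both in A375 and SKMEL5 at 6 h. The difference in SKMEL5 at 24 h was -1.27 ± 0.21 (adjusted p = 0.00233), and the other differences of DDIT3 in a line were not called.

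NUPR1, a small stress-induced nuclear protein, was the transcription regulator with the most negative mean difference at 24 h among the 7 of that group. NUPR1 read 476 with A-485 against 1606 and 1656 with DMSO in SKMEL5 at 24 h, and 453 with A-485 against 450.3 and 417 with DMSO at 6 h. In WM2664 NUPR1 read 476 with A-485 against 1400 and 1221 with DMSO at 24 h, and 590.4 with A-485 against 615 and 629 with DMSO at 6 h. In A375 it read 32 with A-485 against 32 and 43.2 with DMSO at 24 h, and 32 with A-485 against 32 and 32.6 with DMSO at 6 h, at or within 2-fold of the floor on all 6 arrays. NUPR1 fell at 24 h in SKMEL5 (-1.77 ± 0.16, adjusted p = 0.000113) and in WM2664 (-1.46 ± 0.16, adjusted p = 0.000363), the A-485 array lying below both DMSO arrays in each, and the WM2664 call ended with a floor of 16 at an unmoved value. A fall in A375 could not have been measured so near the floor.

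Of the other transcription factors, CEBPB, a C/EBP family activator, fell in WM2664 at 24 h (-1.24 ± 0.10) and at 6 h (-1.25 ± 0.10), in SKMEL5 at 24 h (-0.55 ± 0.10) and in A375 at 6 h (-0.40 ± 0.10). The A375 call of CEBPB ended without any 1 DMSO array other than the 2 of A375 at 24 h, with values of -0.40, and the SKMEL5 call ended without scaling (-0.68). CEBPG, which pairs with ATF4 on DNA, fell in SKMEL5 at 24 h (-1.32 ± 0.18, adjusted p = 0.000825). ATF5, a relative of ATF4 that is also controlled in translation, moved the other way. It rose at 24 h in WM2664 (1.10 ± 0.20, adjusted p = 0.00386) and in SKMEL5 (0.63 ± 0.20, adjusted p = 0.039). The SKMEL5 call of ATF5 ended without any 1 DMSO array other than SKMEL5 replicate 2 at 24 h, down to 0.35 without SKMEL5 replicate 1 at 24 h, and the WM2664 call ended without the 3 arrays that carried another line's transcripts (1.18). XBP1, a factor of the unfolded protein response, was not called in any line or time, with differences from -0.69 to 0.67.

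Among the 6 feedback and growth regulators, CHAC1, an enzyme that degrades glutathione, had the most negative difference of all 35 genes in SKMEL5. CHAC1 read 66.9 with A-485 against 592 and 608 with DMSO in SKMEL5 at 24 h, and 263 with A-485 against 297 and 342 with DMSO at 6 h. In WM2664 it read 32.7 with A-485 against 178 and 129 with DMSO at 24 h, and was at the floor of 32 on the A-485 array and both DMSO arrays at 6 h. In A375 CHAC1 read 204 with A-485 against 60.6 and 190 with DMSO at 24 h, and 68.3 with A-485 against 32 and 32 with DMSO at 6 h. The A-485 arrays of SKMEL5 and WM2664 at 24 h lay below both of their DMSO arrays, and the A375 A-485 arrays above both of theirs. CHAC1 fell at 24 h in SKMEL5 (-3.17 ± 0.54, adjusted p = 0.00264) and in WM2664 (-2.21 ± 0.54, adjusted p = 0.0152). The A375 differences were not called (24 h 0.93 ± 0.54, 6 h at least 1.09 with both DMSO arrays at the floor). The WM2664 call of CHAC1 rests on an A-485 value next to the floor, and it ended with a floor of 64 (-1.24), without DMSO replicate 1 at 24 h (-1.97) and without the 3 arrays that carried another line's transcripts (-2.44).

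TRIB3, a pseudokinase that restrains AKT and ATF4, differed between the lines and times. In SKMEL5 TRIB3 read 1503 with A-485 against 2402 and 2345 with DMSO at 24 h, and 1935 with A-485 against 1000 and 997 with DMSO at 6 h. In WM2664 it read 1361 with A-485 against 1044 and 989.7 with DMSO at 24 h, and 969 with A-485 against 742 and 689.9 with DMSO at 6 h. A375 arrays read 1481 with A-485 against 1174 and 1580 with DMSO at 24 h, and 927 with A-485 against 1129 and 1103 with DMSO at 6 h. TRIB3 in SKMEL5 was below both DMSO arrays at 24 h (-0.66 ± 0.15, adjusted p = 0.0102) and above both at 6 h (0.95 ± 0.15, adjusted p = 0.00337), and these were its 2 calls within a line. The 24 h call ended without scaling (-0.79), with the mean of both probe sets (-0.55) and without the 3 arrays that carried another line's transcripts (-0.66).

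EIF4EBP1, which binds the cap-binding factor eIF4E and blocks translation, read 799.9 with A-485 against 2610 and 2600 with DMSO in SKMEL5 at 24 h, and 1892 with A-485 against 2163 and 1714 with DMSO at 6 h. WM2664 arrays read 763 with A-485 against 1901 and 1987 with DMSO at 24 h, and 1586 with A-485 against 1652 and 1618 with DMSO at 6 h. In A375 EIF4EBP1 read 1758 with A-485 against 1906 and 1931 with DMSO at 24 h, and 1630 with A-485 against 1754 and 1773 with DMSO at 6 h. At 24 h the A-485 arrays of SKMEL5 and WM2664 lay far below their DMSO arrays, and at 6 h the levels of the lines were close to those in DMSO. EIF4EBP1 fell at 24 h in SKMEL5 (-1.70 ± 0.12, adjusted p = 2.86e-05) and in WM2664 (-1.35 ± 0.12, adjusted p = 0.000122), and not in A375 (-0.13 ± 0.12, adjusted p = 0.59).

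Of the other regulators, SESN2, an inhibitor of the growth kinase complex mTORC1 that senses leucine, fell in SKMEL5 at 24 h (-0.92 ± 0.21, adjusted p = 0.0116), a call that ended without scaling (-0.94). PPP1R15A, the phosphatase subunit that reverses eIF2 phosphorylation, fell in SKMEL5 at 24 h (-0.36 ± 0.12, adjusted p = 0.0473). That call of PPP1R15A ended in most settings, among them without scaling (-0.39) and without SKMEL5 DMSO replicate 1 at 24 h (-0.26), and with the value unmoved without any 1 DMSO array of A375 at either time or of SKMEL5 or WM2664 at 6 h. DDIT4, another mTORC1 inhibitor, fell in A375 at 24 h (-1.15 ± 0.18, adjusted p = 0.00428) and at 6 h (-1.68 ± 0.18, adjusted p = 0.000762). Both DDIT4 calls ended without the 3 arrays that carried another line's transcripts (24 h -1.15, 6 h -1.64), a fit left with 3 residual degrees of freedom.

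**Figure D3:**
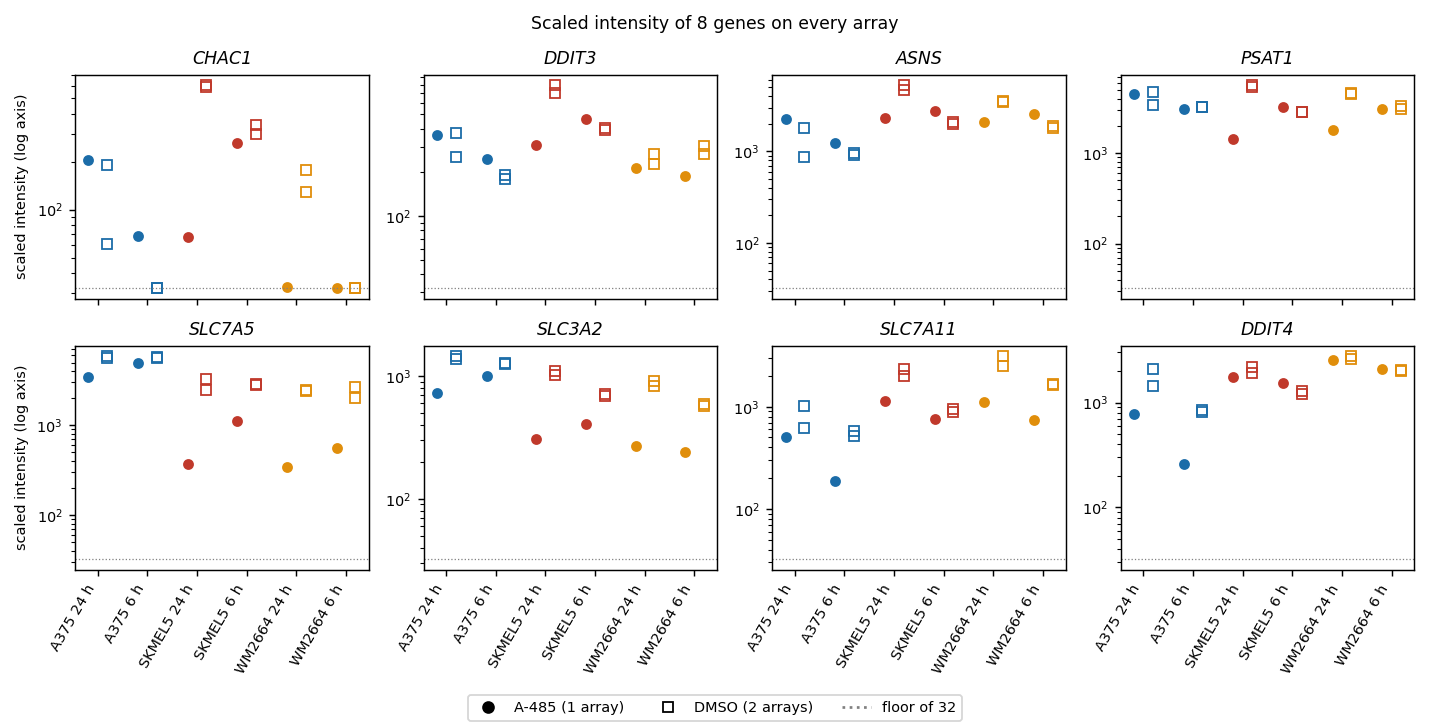
Scaled intensity (log axis) on each of the 18 arrays for 8 of the genes, 1 panel a gene, with the A-485 array of each line and time left of its 2 DMSO arrays. In SKMEL5 at 24 h the A-485 point lies below both DMSO points in each panel, for PSAT1 at 1427 against 5458 and 5718, and in A375 the PSAT1 point lies between them.

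Of the 6 serine and folate enzymes, 5 fell in SKMEL5 at 24 h, 3 of them also in WM2664, and none was called in A375, against 16%, 15.3% and 8.66% of all genes. PSAT1, the aminotransferase in the middle of serine synthesis, read 1427 with A-485 against 5458 and 5718 with DMSO in SKMEL5 at 24 h, and 3208 with A-485 against 2870 and 2822 with DMSO at 6 h. In WM2664 PSAT1 read 1822 with A-485 against 4642 and 4501 with DMSO at 24 h, and 3046 with A-485 against 3314 and 3090 with DMSO at 6 h. In A375 it read 4571 with A-485 against 3384 and 4724 with DMSO at 24 h, and 3070 with A-485 against 3265 and 3245 with DMSO at 6 h. The 24 h A-485 arrays of SKMEL5 and WM2664 lay below all their DMSO arrays at both times, and that of A375 between its 24 h DMSO arrays. PSAT1 fell at 24 h in SKMEL5 (-1.97 ± 0.16, adjusted p = 7.16e-05) and in WM2664 (-1.33 ± 0.16, adjusted p = 0.000617), and not in A375 (0.19 ± 0.16, adjusted p = 0.534).

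PHGDH, the first enzyme of serine synthesis, fell in SKMEL5 at 24 h (-0.93 ± 0.25, adjusted p = 0.0213), a call that ended without SKMEL5 DMSO replicate 1 at 24 h (-0.84), without scaling (-0.94) and without the 3 arrays that carried another line's transcripts (-0.93). PSPH, the last enzyme of that route, fell in SKMEL5 at 24 h (-1.06 ± 0.25), and ended as a call only without those 3 arrays (-1.06). SHMT2, which turns serine into glycine and a folate-bound carbon in mitochondria, fell at 24 h in SKMEL5 (-0.82 ± 0.09) and WM2664 (-0.66 ± 0.09), the WM2664 call ending without scaling (-0.39). MTHFD2, the mitochondrial folate enzyme of the next step, fell at 24 h in SKMEL5 (-1.59 ± 0.11, adjusted p = 2.18e-05) and in WM2664 (-1.03 ± 0.11, adjusted p = 0.000255). The last of the 6, ALDH1L2, which oxidises the folate-bound carbon, was at the floor on all WM2664 arrays and was called in no line.

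All 4 enzymes of the asparagine, cysteine and phosphoenolpyruvate group fell in SKMEL5 at 24 h, and 3 of them in WM2664, against 16% and 15.3% of all genes. ASNS, which makes asparagine and is a classical target of ATF4, read 2319 with A-485 against 5350 and 4699 with DMSO in SKMEL5 at 24 h, and 2798 with A-485 against 2072 and 2003 with DMSO at 6 h. In WM2664 ASNS read 2101 with A-485 against 3456 and 3535 with DMSO at 24 h, and 2542 with A-485 against 1873 and 1784 with DMSO at 6 h. In A375 it read 2245 with A-485 against 875 and 1809 with DMSO at 24 h, and 1230 with A-485 against 905 and 968 with DMSO at 6 h. The A-485 array was below both DMSO arrays in SKMEL5 and WM2664 at 24 h and above both in A375 at 24 h and in all 3 lines at 6 h. The SKMEL5 fall of ASNS was -1.11 ± 0.34 (adjusted p = 0.0335), and the difference in WM2664 was -0.73 ± 0.34 (adjusted p = 0.139). The SKMEL5 call of ASNS ended without any 1 DMSO array other than the 2 of A375 at 24 h (values from -1.21 to -1.02) and without scaling (-1.25).

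CTH and CBS, the enzymes that make cysteine from homocysteine, and PCK2, which makes phosphoenolpyruvate in mitochondria, fell at 24 h in both SKMEL5 and WM2664. CTH fell by 1.26 on the log2 scale in SKMEL5 (adjusted p = 9.06e-05) and by 1.44 in WM2664 (adjusted p = 5.6e-05). CBS fell in SKMEL5 (-1.28 ± 0.12) and in WM2664 (-0.89 ± 0.12), the WM2664 call ending without scaling (-0.54). In A375 CBS rose at 24 h (0.44 ± 0.12, adjusted p = 0.0371), a call that ended without either A375 DMSO array at 24 h (0.44 and 0.43) and, its value unmoved, without any 1 of the A375 DMSO arrays at 6 h or the SKMEL5 DMSO arrays. The annotation holds a near-identical second copy of CBS, and signal from the copies cannot be told apart. PCK2 fell in WM2664 (-1.03 ± 0.29, adjusted p = 0.0272) and SKMEL5 (2-fold, adjusted p = 0.0288). The WM2664 call ended without scaling (-0.67) and without WM2664 DMSO replicate 1 at 24 h (-0.75), and the SKMEL5 call without SKMEL5 DMSO replicate 2 at 24 h (-0.84).

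Of the 8 amino acid transporters, 6 fell in SKMEL5, 6 in WM2664 and 2 in A375 at 24 h (against 16%, 15.3% and 8.66% of all genes), and 2 in SKMEL5, 6 in WM2664 and 3 in A375 at 6 h (against 9.75%, 11.1% and 7.06%). SLC7A5, the light chain of the leucine exchanger, read 3471 with A-485 against 5568 and 5953 with DMSO in A375 at 24 h, and 4914 with A-485 against 5558 and 5806 with DMSO at 6 h. SKMEL5 arrays read 368 with A-485 against 3248 and 2472 with DMSO at 24 h, and 1104 with A-485 against 2787 and 2887 with DMSO at 6 h. In WM2664 SLC7A5 read 342 with A-485 against 2473 and 2416 with DMSO at 24 h, and 552 with A-485 against 2694 and 2034 with DMSO at 6 h. Every A-485 array lay below both DMSO arrays of its line and time. SLC7A5 fell at 24 h in SKMEL5 (-2.94 ± 0.19, adjusted p = 1.72e-05), WM2664 (-2.84 ± 0.19, adjusted p = 2.72e-05) and A375 (-0.73 ± 0.19, adjusted p = 0.0331), and at 6 h in SKMEL5 (-1.36 ± 0.19) and WM2664 (-2.08 ± 0.19). The A375 call at 24 h ended without either A375 DMSO array at 24 h (-0.78 and -0.68) and, its value unmoved, without any 1 of the DMSO arrays of A375 or SKMEL5 at 6 h or of WM2664 at 24 h. The SKMEL5 call at 6 h ended without scaling (-1.10).

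SLC3A2, the heavy chain that carries SLC7A5 and SLC7A11 to the cell surface, fell in every line at both times. It read 731 with A-485 against 1378 and 1465 with DMSO in A375 at 24 h, and 998 with A-485 against 1261 and 1278 with DMSO at 6 h. In SKMEL5 SLC3A2 read 308 with A-485 against 1101 and 1027 with DMSO at 24 h, and 410.3 with A-485 against 716 and 688 with DMSO at 6 h. WM2664 arrays read 269 with A-485 against 912 and 829 with DMSO at 24 h, and 241 with A-485 against 568 and 588 with DMSO at 6 h. The A-485 array lay below both DMSO arrays in all 6 comparisons, at 24 h by -0.96 ± 0.08 in A375, -1.79 ± 0.08 in SKMEL5 and -1.69 ± 0.08 in WM2664. At 6 h the differences of SLC3A2 were -0.35 ± 0.08 in A375 (adjusted p = 0.0326), -0.77 ± 0.08 in SKMEL5 and -1.26 ± 0.08 in WM2664. The A375 call at 6 h ended without either A375 DMSO array of that time (-0.36 and -0.34), and without scaling no line was called at 6 h (A375 -0.33, SKMEL5 -0.42, WM2664 -0.72).

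SLC1A5, the main glutamine exchanger, read 122 with A-485 against 515 and 498 with DMSO in SKMEL5 at 24 h, and 244 with A-485 against 307 and 289 with DMSO at 6 h. WM2664 arrays read 193 with A-485 against 825 and 574 with DMSO at 24 h, and 187 with A-485 against 529 and 529.6 with DMSO at 6 h. In A375 SLC1A5 read 997 with A-485 against 1038 and 1154 with DMSO at 24 h, and 815 with A-485 against 925 and 933 with DMSO at 6 h. SLC1A5 fell at 24 h in SKMEL5 (-2.06 ± 0.18, adjusted p = 9.25e-05) and WM2664 (-1.83 ± 0.18, adjusted p = 0.000202), and at 6 h in WM2664 (-1.50 ± 0.18, adjusted p = 0.000695). The A-485 array of A375 also lay below both DMSO arrays at each time, by -0.14 ± 0.18 at 24 h and -0.19 ± 0.18 at 6 h, and was not called.

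SLC7A11, the cystine importer, read 502 with A-485 against 620.1 and 1007 with DMSO in A375 at 24 h, and 186 with A-485 against 581 and 517 with DMSO at 6 h. In SKMEL5 SLC7A11 read 1132 with A-485 against 1982 and 2351 with DMSO at 24 h, and 753 with A-485 against 944 and 889 with DMSO at 6 h. WM2664 arrays read 1121 with A-485 against 3152 and 2492 with DMSO at 24 h, and 743 with A-485 against 1618 and 1652 with DMSO at 6 h. The A-485 array lay below both DMSO arrays in all 6 comparisons. SLC7A11 fell at 6 h in A375 (-1.56 ± 0.27, adjusted p = 0.0075) and WM2664 (-1.14 ± 0.27, adjusted p = 0.0155), and at 24 h in SKMEL5 (-0.93 ± 0.27, adjusted p = 0.0264) and WM2664 (-1.32 ± 0.27, adjusted p = 0.00636). All 4 calls ended without the 3 arrays that carried another line's transcripts (-1.48, -1.15, -0.93 and -1.49 in that order), the SKMEL5 call also without scaling (-1.04) and without SKMEL5 DMSO replicate 2 at 24 h (-0.81) and the WM2664 call at 6 h also without scaling (-0.63) and without WM2664 DMSO replicate 2 at 6 h (-1.12).

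Among the remaining transporters, SLC1A4, a neutral amino acid exchanger, fell in WM2664 at 24 h (-1.51 ± 0.25) and 6 h (-1.62 ± 0.25) and in SKMEL5 at 24 h (-1.01 ± 0.25), the SKMEL5 call ending without SKMEL5 DMSO replicate 2 at 24 h (-0.98) and without scaling (-1.14). SLC7A1, which imports arginine and lysine, fell at 24 h in SKMEL5 (-1.30 ± 0.17) and WM2664 (-0.94 ± 0.17), and the WM2664 call ended without scaling (-0.69). SLC38A2, a sodium-coupled importer of small neutral amino acids, fell at 6 h in A375 (-0.83 ± 0.11) and WM2664 (-0.59 ± 0.11), and both calls ended without scaling (-0.83 and -0.18). Its relative SLC38A1 was called in no line at either time.

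Of the 4 other targets, HERPUD1, a protein of endoplasmic reticulum degradation, fell at 24 h in SKMEL5 (-0.94 ± 0.14) and WM2664 (-0.92 ± 0.14), and XPOT, the exporter of tRNA from the nucleus, fell at 24 h in WM2664 (-0.77 ± 0.11) and SKMEL5 (-0.49 ± 0.11). Without scaling, the WM2664 call of HERPUD1 (-0.59) and both calls of XPOT (-0.49 and -0.65) ended. VLDLR, a lipoprotein receptor, and STC2, a secreted glycoprotein, were called in no line at either time.

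The difference between lines was tested directly as the 24 h response of A375 minus the mean response of SKMEL5 and WM2664. It was called higher for 23 of the 35 genes and lower for 1, against 12.2% and 11.6% of all tested genes, with a median of 0.96 over the 35 genes. The most positive of these differences were CHAC1 (3.62 ± 0.66), SLC7A5 (2.16 ± 0.23), PSAT1 (1.84 ± 0.20), SLC1A5 (1.81 ± 0.22), ASNS (1.76 ± 0.41) and CBS (1.53 ± 0.14). DDIT4 was the gene called lower (-0.996 ± 0.22). NUPR1 (1.40) and VLDLR (1.21) lay within 2-fold of the floor on some or all A375 arrays, which limits how far they could fall there, and with a floor of 16 NUPR1 had 0.90 and was not called. Without scaling 7 of the 35 genes were called, and 14 without the 3 arrays that carried another line's transcripts. The shares of all genes called in these fits are not given here. Between SKMEL5 and WM2664 at 24 h, 1 gene was called higher (CEBPB 0.69 ± 0.14) and 2 lower (TRIB3 -1.08 ± 0.21 and MTHFD2 -0.56 ± 0.15), against 7.14% and 6.82% of all genes. The MTHFD2 call ended without any 1 DMSO array other than the 2 of A375 at 24 h (-0.60 to -0.52). The 8 genes called lower in SKMEL5 alone thus included 7 whose difference between these 2 lines was not called.

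The responses at 6 h were tested in the same way. In A375, 5 fell, against 7.06% of all genes lower and 5.29% higher. In SKMEL5, 2 fell and 3 rose, against 9.75% and 12.6%. In WM2664, 8 fell and 1 rose, against 11.1% and 15.2%. For 23 of the 35 genes no line was called, a count that was not made over all genes. The genes that rose at 6 h were TRIB3 in SKMEL5 and 2 metabolic enzymes. CTH rose in SKMEL5 (0.68 ± 0.11, adjusted p = 0.00385). MTHFD2 rose in SKMEL5 (0.38 ± 0.11, adjusted p = 0.0362) and WM2664 (0.41 ± 0.11, adjusted p = 0.0229), and both calls ended with scaling to a common 75th percentile (0.21 and 0.22). Leaving out SKMEL5 DMSO replicate 1 or 2 at 6 h ended the SKMEL5 call of MTHFD2 (0.41 and 0.36), as did either A375 DMSO array at 6 h with the value unmoved, and leaving out WM2664 DMSO replicate 2 at 6 h ended the WM2664 call (0.36). HERPUD1 fell in WM2664 at 6 h (-0.44 ± 0.14, adjusted p = 0.0478). That call ended without WM2664 DMSO replicate 2 at 6 h (-0.32) and, its value unmoved, without any 1 SKMEL5 DMSO array or A375 DMSO array of 24 h, and the sign turned without scaling (0.024). Before scaling, the A-485 arrays at 6 h were brighter over all genes than DMSO, by a median of 0.30 in SKMEL5 and 0.42 in WM2664, so unscaled falls at 6 h are read against those shifts.

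At 6 h the response of A375 exceeded the mean of SKMEL5 and WM2664 for SLC7A5 (1.51 ± 0.23) and SLC3A2 (0.67 ± 0.10), whose falls were smaller in A375, and lay below it for DDIT4 (-1.88 ± 0.22), TRIB3 (-0.96 ± 0.18) and PPP1R15A (-0.64 ± 0.15). These are 2 higher and 3 lower calls, against 5.24% and 5.8% of all genes. SKMEL5 exceeded WM2664 at 6 h for CEBPB (1.15 ± 0.14) and SLC1A5 (1.21 ± 0.25), 2 calls against 2.58% of all genes called higher and 2.32% called lower. The PPP1R15A call ended without any 1 of A375 replicate 1 (-0.67), A375 replicate 2 (-0.61), SKMEL5 replicate 2 (-0.61) or WM2664 replicate 2 (-0.60) among the DMSO arrays at 6 h. The SLC1A5 call ended without any 1 DMSO array of 6 h (1.17 to 1.26) and, unmoved, of SKMEL5 or A375 at 24 h.

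Averaged over the 3 lines, 24 genes were lower and 1 was higher (ATF5 0.74 ± 0.11) at 24 h, against 21.6% and 26.4% of all genes. The mean fell by at least 1 for SLC7A5 (-2.17 ± 0.11), CHAC1 (-1.48 ± 0.31), SLC3A2 (-1.48 ± 0.05), SLC1A5 (-1.34 ± 0.10), NUPR1 (-1.15 ± 0.09), EIF4EBP1 (-1.06 ± 0.07) and PSAT1 (-1.03 ± 0.09). ASNS was not called in the mean, its 3 lines not sharing a direction (-0.34 ± 0.19). At 6 h the mean was lower for 9 genes and higher for 5, against 15.9% and 22.4% of all genes. The 9 included 7 of the 8 transporters, from SLC7A5 (-1.22 ± 0.11) to SLC7A1 (-0.33 ± 0.10), with CEBPB (-0.59 ± 0.06) and DDIT4 (-0.43 ± 0.11). The 5 higher genes were SESN2 (0.57 ± 0.12), TRIB3 (0.37 ± 0.09), MTHFD2 (0.33 ± 0.06), CEBPG (0.32 ± 0.10) and CTH (0.22 ± 0.06), and SESN2, the widest of them, was not called in any line alone. The mean call of CEBPG ended without any 1 DMSO array of 6 h or of SKMEL5 at 24 h (0.30 to 0.34), that of CTH without SKMEL5 replicate 1, WM2664 replicate 1 or A375 replicate 2 of the DMSO arrays at 6 h (0.21 to 0.22), and that of SLC7A1 without any 1 of these 6 arrays other than SKMEL5 replicate 2 (-0.34 to -0.30).

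The change of the mean response with time was tested as 24 h minus 6 h. It was lower for 18 genes and higher for SLC38A2 (0.33 ± 0.09), against 10.7% and 9.02% of all genes. The widest were CHAC1 (-1.75 ± 0.44), MTHFD2 (-1.20 ± 0.09), CTH (-1.15 ± 0.09), NUPR1 (-1.14 ± 0.13), SESN2 (-1.12 ± 0.17) and PSAT1 (-1.04 ± 0.13). SLC7A11 (0.03 ± 0.22) and CEBPB (-0.01 ± 0.083) were not called. CHAC1 at 6 h rests on DMSO arrays at the floor in A375 and WM2664, and its call ended with a floor of 64 (-1.11) and without WM2664 DMSO replicate 1 at 24 h (-1.68), SKMEL5 DMSO replicate 1 at 6 h (-1.72) or, unmoved, any A375 or WM2664 DMSO array at 6 h. That of SLC38A2 ended without 7 single arrays, with values of 0.31 (SKMEL5 DMSO replicate 1 at 24 h) to 0.35 (SKMEL5 DMSO replicate 2 at 6 h), and without scaling (0.13).

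The DMSO arrays themselves differed by time, and this comparison shares its arrays with the responses above. In DMSO at 24 h, 25 of the 35 genes were higher than in DMSO at 6 h and 1 was lower (ATF5 -0.49 ± 0.09), against 6.73% and 6.64% of all genes. The median difference was 0.46 over the 35 genes and 0.01 over all genes, and 34 of the 35 differences were above 0. CHAC1 (1.63 ± 0.25), NUPR1 (1.06 ± 0.08), PCK2 (0.97 ± 0.14), CBS (0.94 ± 0.06) and ASNS (0.89 ± 0.16) had the widest ones. The CHAC1 value is partly a bound, since both DMSO arrays of A375 and of WM2664 at 6 h were at the floor. SLC7A5 was not called, with a difference of 0.03 ± 0.09 (adjusted p = 0.874). Line by line, the DMSO level was higher at 24 h than at 6 h for 33 genes in A375 (median 0.30), 32 in SKMEL5 (median 0.61) and 31 in WM2664 (median 0.43). On the A-485 arrays, 29 genes in A375 (median 0.55), 8 in SKMEL5 (median -0.28) and 14 in WM2664 (median -0.08) were higher at 24 h than at 6 h. These counts by line were not tested and were not made over all genes, and those with A-485 compare 1 array with 1 array. ASNS shows the pattern in single values: SKMEL5 read 2319 at 24 h and 2798 at 6 h with A-485, against 5350 and 4699 at 24 h and 2072 and 2003 at 6 h with DMSO. In SKMEL5, A-485 at 24 h minus DMSO at 6 h was 0.19 for ASNS, 0.02 for CTH, 0.33 for CBS, 0.45 for PCK2 and 0.14 for NUPR1. The same difference was negative for other genes, among them PSAT1 (-0.996), MTHFD2 (-0.99) and SLC7A5 (-2.95), and was not tested. Without scaling 4 genes were called in DMSO between the times, and 8 without the 3 arrays that carried another line's transcripts. The shares of all genes called in those fits are not given here. The labels used here give no medium change, cell density or feeding time, and their part in the time difference was not tested.

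**Figure D4:**
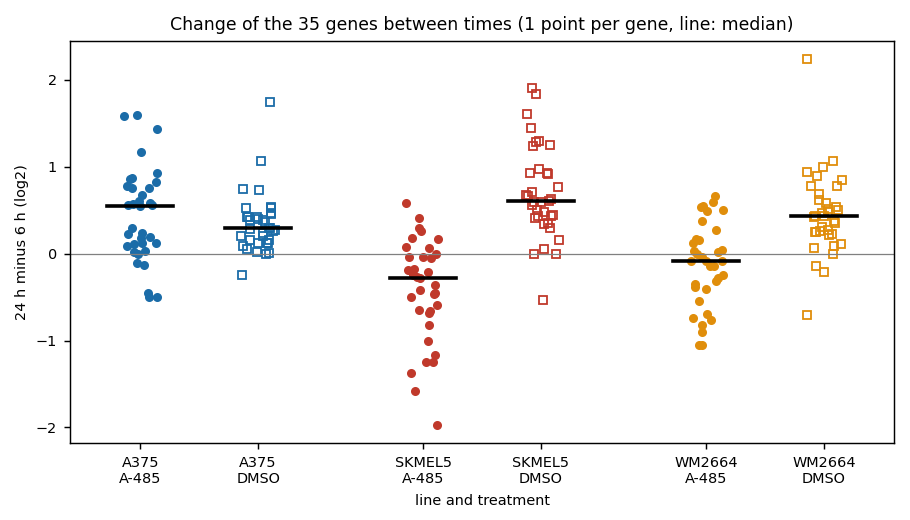
Change of level between the times (24 h minus 6 h, log2) on the A-485 arrays and on the DMSO arrays of each line, with 1 point for each of the 35 genes. The medians are 0.55 with A-485 and 0.30 with DMSO in A375, -0.28 and 0.61 in SKMEL5, and -0.08 and 0.43 in WM2664.

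In DMSO the lines differed widely in the levels of these genes, as they did for most genes. A375 was called higher than the mean of SKMEL5 and WM2664 for 12 genes and lower for 17, against 40% and 34.9% of all genes, and SKMEL5 was higher than WM2664 for 18 and lower for 7, against 33.5% and 30.5%. As shares of the 35 genes, these counts are 34.3% and 48.6% for A375, and 51.4% and 20% for SKMEL5. SLC1A4 was lower in A375 than in the other lines (-5.00 ± 0.12, or -2.47 with probe sets without _x_ or _s_ preferred): its DMSO arrays read 129 and 164 at 24 h and 161 and 99.3 at 6 h in A375, against 2839 to 6958 in the other lines. The higher A375 value at 6 h is that of replicate 1, which carried 0.774% of SKMEL5 levels. NUPR1 (-4.65 ± 0.08) was at the floor on 2 of the 4 A375 DMSO arrays, so its value is partly a bound, and VLDLR (-3.88 ± 0.14) was near the floor in A375. CBS (-2.53 ± 0.06), PSPH (-1.82 ± 0.12), CHAC1 (-1.57 ± 0.27), XBP1 (-1.43 ± 0.13), SLC7A11 (-1.40 ± 0.13), ASNS (-1.39 ± 0.17) and PCK2 (-1.24 ± 0.14) were at least 2-fold lower in A375, the CHAC1 value resting in part on 6 h arrays at the floor. SLC38A1 (3.72 ± 0.09), SLC7A5 (1.14 ± 0.09) and SLC1A5 (1.06 ± 0.09) were at least 2-fold higher there. STC2 was also higher in A375 (1.52 ± 0.19), a value set by the floor, which it met on all 4 SKMEL5 DMSO arrays, and it was 0.78 with a floor of 64 and 0.83 on its other probe set. Between SKMEL5 and WM2664, CHAC1 (2.65 ± 0.31), SLC38A1 (2.20 ± 0.10), PSPH (1.55 ± 0.14), SESN2 (1.51 ± 0.12) and DDIT3 (1.04 ± 0.12) were higher in SKMEL5, and PHGDH was lower (-2.26 ± 0.14). CHAC1 was at the floor on both WM2664 DMSO arrays of 6 h, so its value is partly a bound. PSPH differed between the lines by 0.48 on its next probe set and -0.23 on the third, and by 0.60 in the mean of the 3. The mean of the probe sets gave 2.33 and 1.21 for SLC38A1.

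**Figure D5:**
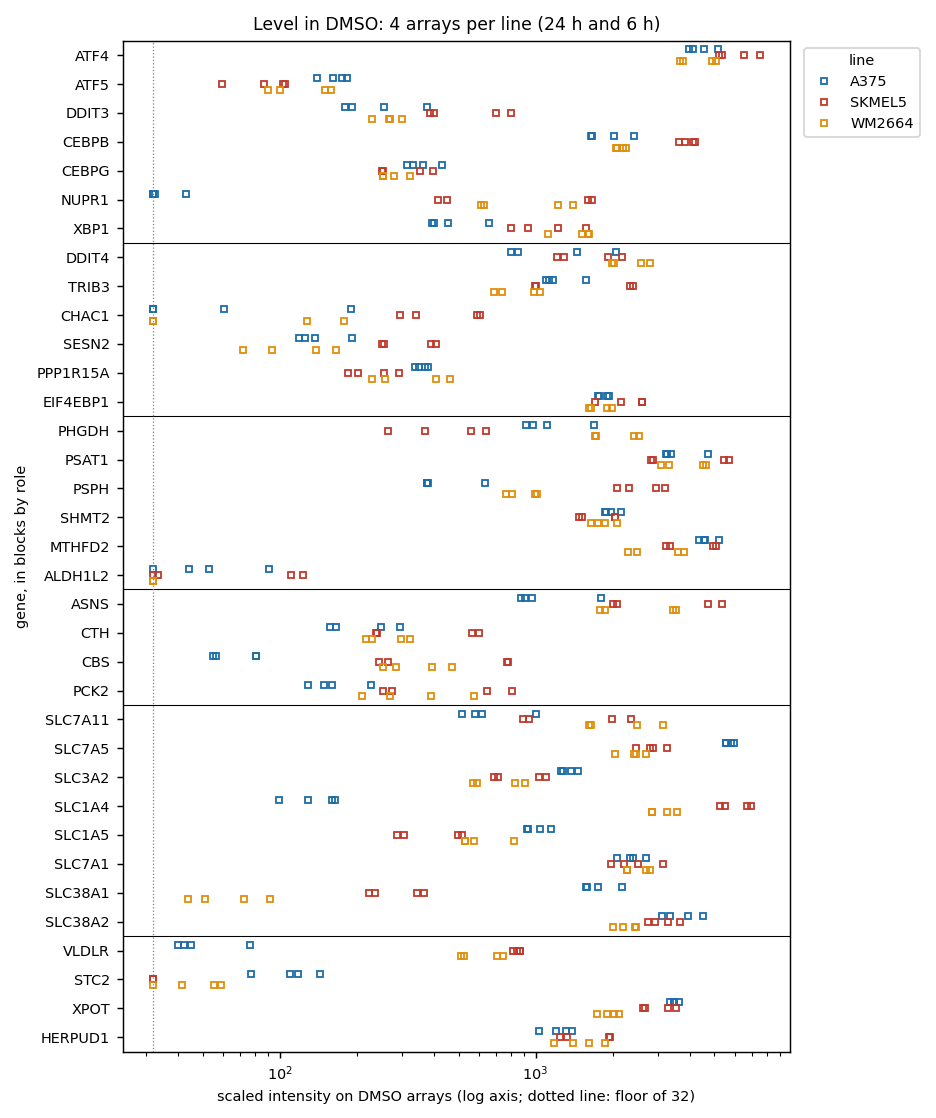
Scaled intensity on the 4 DMSO arrays of each line (24 h and 6 h, log axis) for the 35 genes in rows, in blocks by role, with the floor of 32 as a dotted line. NUPR1, SLC1A4 and VLDLR lie lower in A375 than in the other lines, and SLC38A1 lies higher there.

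Where a gene had several probe sets, most moved alike. SESN2 in A375 at 24 h differed in direction between its brightest probe set (-0.37) and its other one (0.63), TRIB3 in A375 at 24 h likewise (0.12 and -0.25), and PPP1R15A in SKMEL5 at 6 h (0.31 and -0.50). None of these 3 differences was called. PSPH in SKMEL5 at 24 h, called lower on its brightest probe set (-1.06), read -1.19 on the second and 0.42 on the third, which is dim, and -0.61 in the mean of the 3. The other probe sets of ASNS, HERPUD1 and XBP1 were at the floor on every array, so the mean of the sets gives each of these genes a difference of smaller size, for ASNS -0.56 in SKMEL5 and for HERPUD1 -0.47 in SKMEL5 and -0.46 in WM2664 at 24 h. For ATF5 in WM2664 and CBS in WM2664 at 24 h it gave 0.56 and -0.58. XPOT at 6 h in WM2664 read 0.22 on the brightest probe set and -0.45 on the other. Some called differences between lines in DMSO also had probe sets of opposite sign. XPOT in SKMEL5 minus WM2664 read 0.635 and -0.505, and in the mean of both it was 0.065 and not called. CEBPG in A375 minus the other lines read 0.294 and -0.284, and in the mean of both it was 0.005 and not called. The second probe sets of PSAT1 (-2.39 in SKMEL5 and -1.83 in WM2664 at 24 h) and CTH (-1.09 and -1.17) had the direction of the first. The brightest probe set carried the suffix of sets that can cross-hybridise or cover several transcripts for 15 of the 35 genes.

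Genes around these were read from further lists. Of 17 kinases and subunits that act on or with eIF2, 5 rose and 2 fell in SKMEL5 (29.4% and 11.8%), 1 fell in WM2664 (5.88%), and 2 rose and 1 fell in A375 (11.8% and 5.88%) at 24 h. Of all genes, 20.7% rose and 16% fell in SKMEL5, 18.2% and 15.3% in WM2664, and 8.78% and 8.66% in A375, so the shares in SKMEL5 and A375 lie near the background and those in WM2664 below it. At 6 h, 2 of the 17 rose in A375 (11.8%), 4 in SKMEL5 (23.5%) and 3 in WM2664 (17.6%), and none fell. Of all genes at 6 h, 5.29% rose in A375, 12.6% in SKMEL5 and 15.2% in WM2664, and 7.06%, 9.75% and 11.1% fell. EIF2AK3, the eIF2 kinase of the endoplasmic reticulum, rose at 6 h in A375 (0.81 ± 0.09), SKMEL5 (0.49 ± 0.09) and WM2664 (0.65 ± 0.09). PPP1R15B, the constant partner of the eIF2 phosphatase, also rose at 6 h in A375 (0.42 ± 0.09), SKMEL5 (0.53 ± 0.09) and WM2664 (0.47 ± 0.09). EIF2B3, a subunit of the eIF2 exchange factor, rose at 6 h in SKMEL5 (0.35 ± 0.09) and WM2664 (0.40 ± 0.09), and OMA1, a mitochondrial protease that relays mitochondrial stress, fell at 24 h in A375 (-0.48 ± 0.11) and WM2664 (-0.40 ± 0.11).

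Of 15 further ATF4 targets tested (of 20 listed), 7 fell in SKMEL5 (46.7%, against 16% of all genes), 6 fell and 2 rose in WM2664 (40% and 13.3%, against 15.3% and 18.2%), and 2 fell and 2 rose in A375 (13.3% each, against 8.66% and 8.78%) at 24 h. ATF3, a repressor induced by stress, fell in SKMEL5 (-1.79 ± 0.26) and WM2664 (-1.31 ± 0.26). The WM2664 value of ATF3 is a bound, since its A-485 array was at the floor of 32 against 101 and 63.0 with DMSO. GDF15, a secreted stress hormone, fell in WM2664 (-1.89 ± 0.18) and SKMEL5 (-0.59 ± 0.18). PYCR1, which makes proline, fell in WM2664 (-0.92 ± 0.20) and SKMEL5 (-0.87 ± 0.20). NFIL3, a leucine zipper repressor, fell in WM2664 (-1.05 ± 0.11) and A375 (-0.40 ± 0.11).

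Of 14 endoplasmic reticulum chaperones and targets of the other unfolded protein response arms tested, 4 rose in SKMEL5 (28.6%, against 20.7% of all genes), 2 rose and 2 fell in WM2664 (14.3% each, against 18.2% and 15.3%), and 3 rose and 1 fell in A375 (21.4% and 7.14%, against 8.78% and 8.66%) at 24 h. The shares that rose in SKMEL5 and WM2664 lie near the background. EDEM1, which takes misfolded glycoproteins to degradation, rose at 24 h in A375 (0.34 ± 0.08), SKMEL5 (0.29 ± 0.08) and WM2664 (0.24 ± 0.08). At 6 h, 2 of the 14 rose in A375 (14.3%), 2 in SKMEL5 (14.3%) and 4 in WM2664 (28.6%), and none fell. The shares of all genes that rose then were 5.29%, 12.6% and 15.2%. DNAJB9, a co-chaperone induced by XBP1, rose at 6 h in A375 (0.45 ± 0.09), SKMEL5 (0.49 ± 0.09) and WM2664 (0.48 ± 0.09).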

How the data were processed

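RNA of 3 melanoma lines was measured on 18 arrays in 12 groups by line, treatment and time, with 2 arrays in a DMSO group and 1 in an A-485 group. Per the labels' protocols, total RNA was amplified into biotinylated cRNA with a 3' IVT kit. The values the authors deposited are intensities on a linear scale, 1 per probe set and array, partly below 0; how they were computed and scaled is not given in the sources used, and the number of arrays limits the precision.

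Of 54613 probe sets, 41091 had 1 gene symbol, 1801 several and 11721 none listed; symbols were updated through Entrez identifiers for 41037. Linear intensities were brought to 1 common distribution by quantile normalization, raised to a floor of 32 where lower, and turned into log2 values. The brightest probe set stood for a gene, and genes above the floor on at least 3 arrays were tested (13308). A group-means model on all 18 arrays was fitted with limma 3.58.1 in R 4.3.3, with 6 residual degrees of freedom, 1.83 prior ones and 16 contrasts. P-values were adjusted by Benjamini-Hochberg within each contrast and called under 0.05. The fit was tested on simulated data.

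The 35 genes and the further lists were chosen with earlier results of these data known. Values on every array were given for ATF4, DDIT3, TRIB3, CHAC1, ASNS and SLC7A11, and for each gene called in a mean over the 3 lines with a difference of at least 1. Other genes were named by their differences when called in at least 2 lines in 1 direction at 1 time, when at least 2-fold apart between lines in DMSO, or when probe sets disagreed; a few further called genes are named so that each of the 35 is accounted for. Up to 4 genes of a further list were named when called in at least 2 lines in 1 direction. The alternatives were no scaling, scaling to the 75th percentile, floors of 16 and 64, no filter, other ways to choose probe sets, the fit without 3 DMSO arrays that carry transcripts of another line, the replicate number as a block, and leaving out each array. Promoter windows are RefSeq's (GRCh38.p14). Sequence is printed for the genes with a searched word wholly before the start.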

Additional observations from a re-analysis of the deposited data

Results flagged for a closer look

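A number of differences between groups passed the test of the difference itself (limma, adjusted p under 0.05 over all 13308 genes), and they are given here as values. For the change of the mean response with time, 24 h minus 6 h, the transcription factors and regulators had values of -0.50 for ATF4, -0.84 for CEBPG, -1.14 for NUPR1, -0.41 for TRIB3, -1.75 for CHAC1, -1.12 for SESN2 and -0.999 for EIF4EBP1. The enzymes had -1.04 for PSAT1, -0.51 for SHMT2, -1.20 for MTHFD2, -1.15 for CTH and -0.71 for CBS. The transporters had -0.95 for SLC7A5, -0.69 for SLC3A2, -0.68 for SLC1A5, -0.49 for SLC7A1 and 0.33 for SLC38A2, which alone was positive. The SLC7A1 call ended without any 1 DMSO array of 6 h or of WM2664 at 24 h, at values from -0.52 to -0.47. XPOT had -0.46 and HERPUD1 -0.65. The TRIB3 call ended in every alternative that left out 1 DMSO array of 6 h or of SKMEL5 or WM2664 at 24 h, at values from -0.43 to -0.40.

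For the 24 h response, A375 exceeded the mean of SKMEL5 and WM2664 by 0.61 for ATF4, 0.97 for DDIT3, 0.90 for CEBPB, 1.17 for CEBPG, 1.40 for NUPR1, 3.62 for CHAC1 and 1.40 for EIF4EBP1. Among the enzymes the excess was 1.84 for PSAT1, 1.17 for PSPH, 0.84 for SHMT2, 1.35 for MTHFD2, 1.76 for ASNS, 1.27 for CTH, 1.53 for CBS and 1.36 for PCK2. Among transporters it was 2.16 for SLC7A5, 0.78 for SLC3A2, 1.08 for SLC1A4, 1.81 for SLC1A5 and 0.88 for SLC7A1. It was 1.21 for VLDLR, 0.71 for XPOT and 0.96 for HERPUD1, while DDIT4 had -0.996. At 6 h the same difference was -1.88 for DDIT4, -0.96 for TRIB3, -0.64 for PPP1R15A, 1.51 for SLC7A5 and 0.67 for SLC3A2. The 24 h calls of DDIT3, PCK2, PSPH, SLC1A4 and VLDLR ended without 1 of several DMSO arrays, DDIT3 at 0.91 without WM2664 replicate 1 at 24 h, PCK2 at 1.11 and SLC1A4 at 0.90 without A375 replicate 1 at 24 h, and PSPH at 1.14 and VLDLR at 1.21 without SKMEL5 replicate 2 at 24 h. VLDLR had 0.79 without A375 replicate 1 at 24 h and remained called, and PSPH had 0.62 and was not called with the mean of its probe sets.

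Between SKMEL5 and WM2664, the 24 h responses differed by 0.69 for CEBPB, -1.08 for TRIB3 and -0.56 for MTHFD2. At 6 h they differed by 1.15 for CEBPB and 1.21 for SLC1A5.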

How the results depend on the processing

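Over 9 alternatives other than leaving out an array, the number of the 35 genes called changed most without scaling and without the 3 DMSO arrays that carry transcripts of another line. Of the 243 calls over the 16 comparisons, 98 ended without scaling, 86 without those 3 arrays (a fit with 3 residual degrees of freedom), 22 with a floor of 16, 22 with the mean of all probe sets, 11 with the 75th percentile and 2 with a floor of 64. Without scaling, the counts were 7 and 1 for A375 minus the other lines at 24 h and 6 h, 2 and 2 for A375, 0 and 0 for SKMEL5 minus WM2664, 18 and 3 for SKMEL5, 13 for WM2664 at 24 h and 4 for DMSO by time. Without the 3 arrays they were 14 and 3 for A375 minus the other lines, 2 and 1 for A375, 9 for the mean at 6 h, 0 for SKMEL5 minus WM2664 at 24 h and 8 for DMSO by time. With the 75th percentile, SKMEL5 minus WM2664 at 24 h gave 1. A floor of 16 gave 2 and 3 for A375 and 1 for SKMEL5 minus WM2664 at 6 h; a floor of 64 gave 9 for A375 minus the other lines at 6 h, and 5 and 4 for SKMEL5 minus WM2664. The mean of all probe sets gave 4 for SKMEL5 minus WM2664 at 6 h. The shares of all genes called under these alternatives, or with an array left out, are not given here. A loss of calls among the 35 genes was not set against the loss over all genes, so it is not read as particular to them.

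Equal replicate numbers did not pair the arrays: over 15 pairs of DMSO groups the correlation of deviations ran from -0.036 to 0.059. With the replicate number as a block, 3 genes were called in A375 at 6 h and 1 in SKMEL5 minus WM2664 at 6 h, and 18 of the 243 calls ended.

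Leaving out 1 array gave 20 to 30 calls for A375 minus the other lines at 24 h and 4 to 10 at 6 h, 2 to 9 and 3 to 8 for A375, 24 to 30 and 4 to 10 for SKMEL5, and 17 to 24 and 6 to 13 for WM2664. It gave 23 to 30 for the mean at 24 h, 11 to 18 at 6 h, 15 to 26 for their difference, 2 to 8 and 1 to 4 for SKMEL5 minus WM2664, 27 to 32 and 23 to 26 for DMSO between lines and 23 to 30 for DMSO by time. The highest counts came without an A375 DMSO array of 24 h.

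Among values called as reported or under the alternative, the sign turned for 7. Without scaling it turned for ATF4 (0.083) and HERPUD1 (0.003) in DMSO of A375 minus the other lines and for HERPUD1 in WM2664 at 6 h (0.024). With the mean of probe sets it turned for SLC7A1 in DMSO of A375 minus the other lines (0.21) and SHMT2 in DMSO of SKMEL5 minus WM2664 (0.23), for SHMT2 also with sets without _x_ or _s_ preferred (0.74). ALDH1L2 in the mean at 24 h turned without A375 DMSO replicate 2 at 24 h, its values without 1 array running from -0.25 to 0.25. The causes were not tested.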

Other observations

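Genes of the neighbouring antioxidant and folate programs were read from further lists. Of 7 targets of NRF2 tested (of 8 listed), 5 fell in SKMEL5, 5 in WM2664 and 4 in A375 at 24 h, against 16%, 15.3% and 8.66% of all genes. At 6 h, 3 fell in SKMEL5, 2 in WM2664 and 1 in A375, against 9.75%, 11.1% and 7.06%, and 1 rose in WM2664, against 15.2%. TXNRD1, which reduces thioredoxin, fell in all 3 lines at 24 h (A375 -0.60 ± 0.09, SKMEL5 -0.29 ± 0.09, WM2664 -0.65 ± 0.09) and at 6 h (A375 -0.73 ± 0.09, SKMEL5 -0.34 ± 0.09, WM2664 -0.63 ± 0.09). PIR, an iron-binding nuclear protein, fell at 24 h in WM2664 (-1.52 ± 0.06), SKMEL5 (-0.72 ± 0.06) and A375 (-0.22 ± 0.06). SRXN1, which repairs peroxiredoxins, and NQO1, a quinone reductase, fell in all 3 lines at 24 h, with differences for SRXN1 of -0.60 ± 0.10 in A375, -0.67 ± 0.10 in SKMEL5 and -0.74 ± 0.10 in WM2664, and for NQO1 of -0.34 ± 0.07, -0.31 ± 0.07 and -0.49 ± 0.07 in that order.

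Of 6 folate cycle genes tested outside the 35 (of 10 listed), 4 fell and 1 rose in SKMEL5 (66.7% and 16.7%, against 16% and 20.7% of all genes), 4 fell and 2 rose in WM2664 (66.7% and 33.3%, against 15.3% and 18.2%), and 1 rose in A375 (16.7%, against 8.78%) at 24 h. TYMS, which makes thymidylate and is expressed with DNA replication, fell in SKMEL5 (-2.23 ± 0.06) and WM2664 (-0.38 ± 0.06). GLDC, the glycine-cleaving enzyme, fell in WM2664 (-2.10 ± 0.15) and SKMEL5 (-0.47 ± 0.15, all levels there within 2-fold of the floor), and MTHFD1, the cytosolic folate enzyme, in SKMEL5 (-0.65 ± 0.07) and WM2664 (-0.57 ± 0.07). MTHFD2L, a paralogue of MTHFD2, rose in SKMEL5 (0.92 ± 0.08), WM2664 (0.80 ± 0.08) and A375 (0.31 ± 0.08), while MTHFD2 itself had -1.59 ± 0.11, -1.03 ± 0.11 and 0.04 ± 0.11 in those lines.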
